A study of Mus musculus with 6 samples.

Results

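The replicative helicase MCM2-7 is a ring of Mcm2, Mcm3, Mcm4, Mcm5, Mcm6 and Mcm7, and its genes were taken by symbol from the deposited table. All 6 were among the 7340 genes that the table lists, all of them with an unadjusted p under 0.05 when the authors compared the groups. The data are RNA sequencing of 6 kidney samples from wild-type mice. In 3 samples the kidney had ischaemia-reperfusion injury alone (IRI), in which the blood supply is stopped and then restored, and in the other 3 IRI was combined with MK-8617. MK-8617 is an inhibitor of HIF prolyl hydroxylases, enzymes that send the transcription factor HIF to degradation, and the series title frames the comparison around Sox9-positive progenitor cells and renal regeneration. Both groups were injured, so each difference is relative to injury without the inhibitor, and no uninjured kidney was analysed here. Strain, age, dose and whether a sample pools animals are not given in the sources used here. The labels give no time, though the columns of the table are tagged 1d. They also leave unsaid whether each replicate is another animal, so a p-value here measures the spread between 6 samples, and that spread may be technical. The series' design text speaks of tumors, while every sample is labelled kidney.

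MCM2-7 is loaded onto origins of replication in G1 by the origin recognition complex with Cdc6 and Cdt1. In S phase it joins Cdc45 and the GINS complex to form the active helicase that unwinds DNA ahead of the polymerases. Each ring holds a single copy of every subunit, and MCM transcripts are classical targets of E2F transcription factors, high in cycling cells and low in resting ones. In the uninjured adult kidney most tubule cells rest, and surviving tubule cells enter the cell cycle during repair after injury. MCM proteins have also been reported to bind HIF-1α and to lower its activity.

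Every MCM2-7 transcript was lower with MK-8617, by 2.13-fold for Mcm7 up to 11.4-fold for Mcm5 in the fitted values. All 6 passed the test, and for each of them the 3 libraries with MK-8617 lay below the 3 with IRI alone. In the table as a whole, 38.7% of the 6961 genes tested were called lower, and 47.6% had all libraries with MK-8617 below all others. Since the table lists only genes with an unadjusted p under 0.05 in these same libraries, passing was partly set in advance. The median log2 difference (MK-8617 minus IRI) was -2.06 over the 6 genes and -0.31 over all genes tested. As a share of the summed MCM2-7 level, Mcm7 and Mcm4 were higher in every library with MK-8617 than in any with IRI alone, and Mcm5, Mcm3 and, by a narrow margin, Mcm2 were lower, while the shares of Mcm6 overlapped.

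The promoter windows of the subunits with the largest and smallest fall are shown whole because E2F sites link these genes to the cell cycle. For Mcm3 and Mcm6 only a stretch of 60 bases from the window is shown. RefSeq promoter windows of 300 bases (GRCm38.p6, from 250 bases before the start site to 50 after it) matched 5 of the 6 genes, Mcm2, Mcm3, Mcm5, Mcm6 and Mcm7. They were searched on both strands for the E2F letters TTTCCCGC, TTTCGCGC, TTTGCCGC and TTTGGCGC, whose matches are in capitals and may overlap each other. The sequences run 5′ to 3′ on the strand of the gene.
Mcm5 (chr8:75109259-75109558, plus strand): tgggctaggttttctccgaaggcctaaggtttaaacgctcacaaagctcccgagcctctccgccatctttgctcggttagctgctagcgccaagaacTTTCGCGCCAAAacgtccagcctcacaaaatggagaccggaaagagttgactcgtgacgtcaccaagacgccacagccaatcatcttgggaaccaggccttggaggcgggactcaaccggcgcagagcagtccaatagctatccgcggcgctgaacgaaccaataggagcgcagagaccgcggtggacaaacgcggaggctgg
Mcm7 (chr5:138171834-138172133, minus strand): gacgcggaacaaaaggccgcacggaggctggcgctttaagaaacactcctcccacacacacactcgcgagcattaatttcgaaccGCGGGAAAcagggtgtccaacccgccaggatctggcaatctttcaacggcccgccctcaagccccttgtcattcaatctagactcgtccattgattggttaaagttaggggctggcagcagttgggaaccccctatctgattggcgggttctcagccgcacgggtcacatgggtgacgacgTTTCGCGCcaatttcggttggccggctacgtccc
Mcm3 (chr1:20820263-20820322, minus strand): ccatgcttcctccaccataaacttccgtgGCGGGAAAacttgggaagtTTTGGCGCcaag
Mcm6 (chr1:128359782-128359841, minus strand): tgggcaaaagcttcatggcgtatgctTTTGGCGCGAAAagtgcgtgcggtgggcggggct

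Of the 5 matched genes, 4 held at least 1 E2F match, against 2.6% of the 27025 genes with a window. In Mcm5, the subunit that fell the most, a pair of overlapping matches on opposite strands began at -153 and -149 relative to the start site. In Mcm7, which fell the least, the matches began at -165 and at 17 in the window shown. Another RefSeq window of Mcm7, at chr5:138171217-138171516, held 0 E2F matches. Mcm3 had matches at 20 and 39, and Mcm6 at -110, -106 and -47, the last of which lies outside the stretch shown. Mcm2 held none of these letters, while its fall was larger than those of Mcm6 and Mcm7. The 5 genes all held CCAAT on 1 strand or the other, which 41.1% of genes did. A match describes the sequence and does not show that a factor binds there.

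Mcm5 encodes a subunit at the gate between Mcm2 and Mcm5 through which DNA enters the ring (ENSMUSG00000005410, GRCm38 chromosome 8, 75109569 to 75128439). It had 904.8, 1966 and 897.2 normalised reads (reads divided by the authors' size factor of the library) in IRI replicates 1, 2 and 3. With MK-8617 it had 78.89, 94.99 and 139.3. The lowest IRI library was thus 6.44 times the highest one with MK-8617, the widest gap of the 6 genes. The log2 difference was -3.51 ± 0.32 (SE), with an adjusted p of 0.000184 in limma. Only 49 of the 6961 genes tested had a larger fall. Mcm5 was also the least even member among the libraries with MK-8617, where its coefficient of variation was 30% and replicate 3 lay above the other two. Its 77 to 131 reads in those libraries are the fewest of any MCM2-7 gene there.

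Mcm3, whose C-terminal part contacts Cdc6 when the ring is loaded, fell the next most (ENSMUSG00000041859, chromosome 1, 20802968 to 20820312). Normalised reads were 867.9, 1590 and 831.1 in the IRI libraries and 137.3, 154.8 and 163.8 with MK-8617. The log2 difference was -2.78 ± 0.23, with a limma adjusted p of 0.000131, the lowest of the 6. Mcm2, which binds histones as well as DNA, had 1169, 1787 and 1070 normalised reads with IRI alone (ENSMUSG00000002870, chromosome 6, 88883474 to 88898780). With MK-8617 the values were 283.8, 288.2 and 218. Its log2 difference was -2.32 ± 0.2, with a limma adjusted p of 0.000149. In both genes the groups were well apart, the lowest IRI library being 5.08 and 3.71 times the highest library with MK-8617.

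Mcm4, Mcm6 and Mcm7 form a subcomplex that unwinds DNA on its own in vitro, and they fell the least. Mcm4, a main target of the firing kinase Cdc7, went from 781.8, 1370 and 769.8 to 256.1, 261.5 and 282.8 normalised reads (ENSMUSG00000022673, chromosome 16, 15623897 to 15637400). The log2 difference was -1.81 ± 0.21, with a limma adjusted p of 0.000571. Mcm6, which binds the loading factor Cdt1, had 1327, 2679 and 1593 normalised reads with IRI and 459, 533.6 and 552.9 with MK-8617 (ENSMUSG00000026355, chromosome 1, 128331590 to 128359664). At -1.79 ± 0.23 its log2 difference was within 1 SE of that of Mcm4, and the limma adjusted p was 0.000824. The groups of Mcm4 and Mcm6 did not overlap, with gaps of 2.72 and 2.4 times between the nearest libraries.

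Mcm7 carries the ubiquitin chains by which the helicase is taken off DNA when replication ends (ENSMUSG00000029730, chromosome 5, 138164583 to 138172422). It had 1097, 2007 and 979.7 normalised reads with IRI and 641.4, 616.9 and 565.7 with MK-8617, so the nearest libraries differed by 1.53 times. The log2 difference was -1.09 ± 0.23 with a limma adjusted p of 0.0089, and 1110 genes had a larger fall. Without MK-8617 replicate 3 the call was lost, at -1.04 with an adjusted p of 0.0547. Over the other alternatives its adjusted p ran from 6.74e-05 to 0.0346. Mcm7 overlaps Ap4m1 and Cops6, which lie on the opposite strand and share 321 and 64 of the 4426 exon bases of Mcm7, or 7.25% and 1.45%. The kit is not described in the labels as keeping strand, so reads from those bases cannot be assigned. Cops6 fell, at -0.85 ± 0.1 (adjusted p = 0.000594). Ap4m1 was at 0.38 ± 0.12 (adjusted p = 0.0425), a call lost without any 1 of 5 libraries and in 3 other settings. Their part in the value of Mcm7 was not tested. The miRNAs Mir106b, Mir93 and Mir25 lie within Mcm7 and share none of its exon bases.

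**Figure D1:**
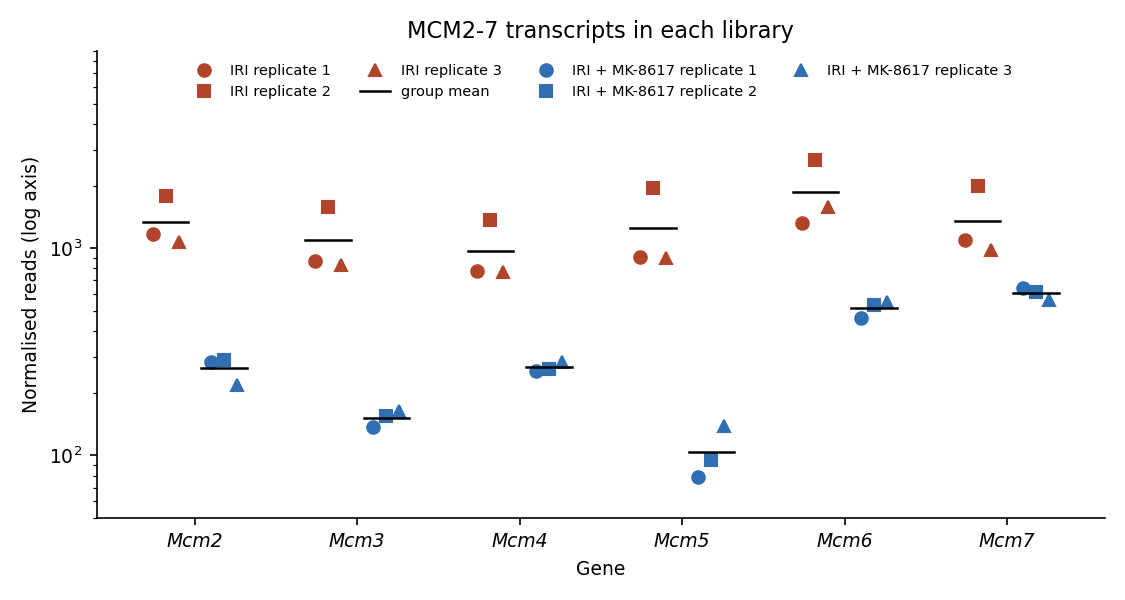
Normalised reads (log axis) of the 6 MCM2-7 genes, with 1 point per library, the marker shape giving the replicate number and the line the group mean. The IRI libraries lie above those with MK-8617 for each gene, and IRI replicate 2 is the highest point of every gene.

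**Figure D2:**
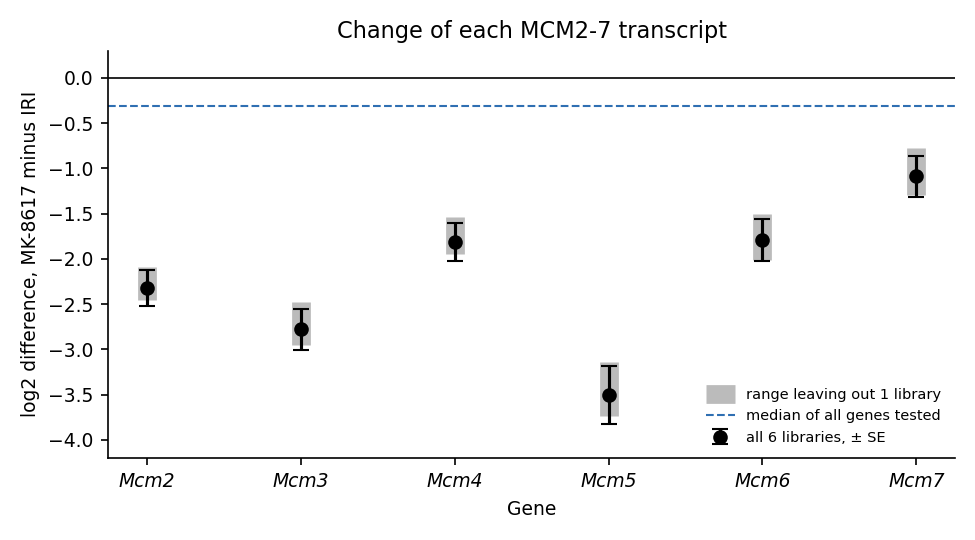
Log2 difference (MK-8617 minus IRI) of each MCM2-7 gene with its SE, over a grey bar that spans the values found when 1 library is left out. The differences run from -3.51 for Mcm5 to -1.09 for Mcm7, all below the dashed median of the genes tested at -0.31.

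IRI replicate 2 was the highest library for every member. Its normalised reads were 1.6 times (Mcm2) to 2.18 times (Mcm5) the mean of IRI replicates 1 and 3, which lay close together. Summed over the 6 genes, IRI replicates 1, 2 and 3 had 347, 642 and 344 CPM (counts scaled to the library total), and the libraries with MK-8617 had 103, 108 and 107. The coefficient of variation was 29% to 48.9% among the IRI libraries and 5.3% to 30% among those with MK-8617. Without IRI replicate 2 the log2 differences shrank but all 6 calls held, at -3.14 for Mcm5, -2.48 for Mcm3, -2.09 for Mcm2, -1.54 for Mcm4, -1.5 for Mcm6 and -0.77 for Mcm7. In bulk tissue, fewer cycling cells and less MCM RNA per cell cannot be told apart.

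Levels between genes were compared as FPKM, which scales reads to gene length and library total. With IRI alone the 6 genes were within about a factor of 2 of each other, the highest being 1.69, 2.23 and 2.22 times the lowest in replicates 1, 2 and 3. Mcm6 was the highest in each IRI library, at 22.5 ± 8.63 FPKM (SD, n = 3), and Mcm2 the lowest, at 10.9 ± 3.15. Mcm5 at 17.7 ± 8.66, Mcm7 at 17.3 ± 7.16, Mcm3 at 16.4 ± 6.42 and Mcm4 at 15.3 ± 5.38 lay between them. These SDs are shared, since all 6 genes were highest in replicate 2, so neighbours in the order were compared within libraries. Mcm5 was below Mcm6 in each IRI library (ratios of 0.797, 0.857 and 0.658), Mcm3 slightly above Mcm4 (1.06, 1.11 and 1.03) and Mcm2 below Mcm4 (0.771, 0.673 and 0.717). Mcm5 and Mcm7 changed places between libraries. With MK-8617 the highest gene was 7.33, 5.86 and 4.08 times the lowest. Mcm7 now led in all 3 libraries, at 7.63 ± 0.459 FPKM, followed by Mcm6 at 6.14 ± 0.603 and Mcm4 at 4.13 ± 0.236. Each of these was above the next in all 3 libraries, and Mcm4 was above Mcm3, at 2.25 ± 0.205. Mcm3 and Mcm2, at 2.1 ± 0.306, did not keep their order (Mcm2 to Mcm3 ratios of 1.12, 1 and 0.718). Mcm5 came last by its mean, at 1.45 ± 0.442, but in MK-8617 replicate 3 its 1.95 FPKM was above the 1.75 of Mcm2.

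The composition of the MCM2-7 transcript pool therefore differed between the groups. Mcm7 held 18, 17.6 and 16.1% of the summed FPKM in IRI replicates 1, 2 and 3, and 35.2, 32.2 and 29.4% with MK-8617. Mcm5 went the other way, from 16.5, 19.1 and 16.3% to 4.8, 5.49 and 8.02%. The share of Mcm3 was 16.4 ± 0.36% with IRI and 9.48 ± 0.58% with MK-8617, and that of Mcm4 15.4 ± 0.55% and 17.4 ± 0.65%. Mcm2 had 11.1 ± 1.1% and 8.89 ± 1.5%, with 9.95% in the lowest IRI library and 9.91% in the highest with MK-8617. Mcm6 had 20.7, 22.2 and 24.8% with IRI and 23.9, 26.4 and 27.2% with MK-8617, so its groups overlapped. The summed FPKM itself was 77.8, 145 and 77.2 with IRI and 22.9, 24 and 24.3 with MK-8617. FPKM here rests on the union of annotated exons, which is 6956 bases for Mcm2 against 3371 in its principal transcript. With principal transcript lengths Mcm2 was no longer the lowest with IRI, at 22.4 FPKM, and Mcm4 was, at 15.3. Mcm5 still went from 14.5 to 5% of the sum on that scale, and Mcm7 from 18.2 to 33.4%.

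**Figure D3:**
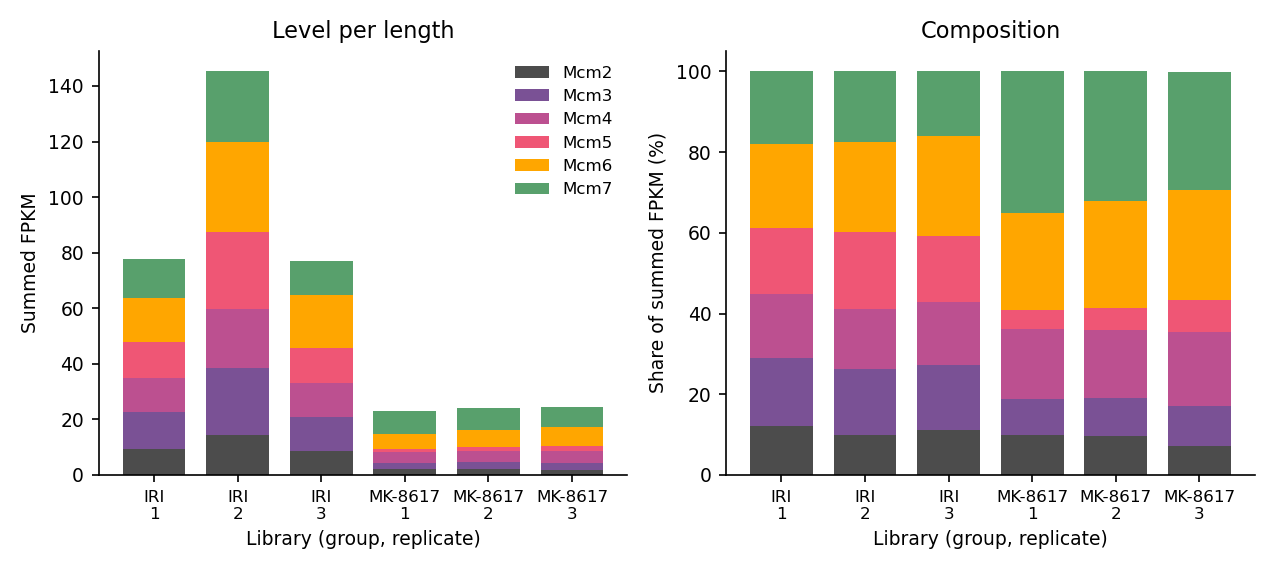
Left, FPKM of the 6 MCM2-7 genes stacked to their sum in each library. Right, the same as a percentage of the sum. The sum falls from 77.2 or more in the IRI libraries to 24.3 or less with MK-8617, and the Mcm7 share rises from at most 18% to at least 29.4%.

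Whether subunits fell by unlike amounts was tested on the log2 ratio of their FPKM in each library, over 15 pairs. The ratio of Mcm5 to Mcm7 was 0.914, 1.09 and 1.02 with IRI and 0.136, 0.171 and 0.273 with MK-8617. That is a difference of -2.44 on the log2 scale, the largest of the 15, and the groups did not overlap. The ratio of Mcm3 to Mcm6 was 0.813, 0.738 and 0.649 with IRI and 0.372, 0.361 and 0.368 with MK-8617. In 13 of the 15 pairs the ratios of the groups did not overlap. The exceptions were Mcm2 with Mcm3, which differed by 0.47, and Mcm4 with Mcm6, which differed by -0.02. The 15 pairs are built from 6 genes and are not independent. The share of such pairs among other genes of the table was not computed, so the count describes these genes only. An exact two-sided permutation test of 3 against 3 libraries cannot give a p below 0.1, and the 13 pairs reached 0.1, or 0.12 after Benjamini-Hochberg adjustment over the pairs. This test therefore cannot pass a threshold of 0.05 here, whatever the size of a difference.

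Factors that load the ring also fell, with 4 of 6 listed members lower and 1 higher, from a list of 9. Cdt1, which brings MCM2-7 to the origin, went from 639.8, 975.5 and 593.4 to 186.5, 138.7 and 158.4 normalised reads (log2 difference -2.16 ± 0.2). Cdc6, the loading ATPase, had 135.3, 365.2 and 100.7 against 11.3, 19.2 and 13.8 (-3.48 ± 0.46). Geminin, the inhibitor of Cdt1 encoded by Gmnn, fell too (-1.42 ± 0.27), as did the origin recognition subunit Orc6 (-0.93 ± 0.2). Orc5, another origin recognition subunit, was higher, at 0.61 ± 0.14 with an adjusted p of 0.0138. Leaving out IRI replicate 1 (0.57) ended this call, as did leaving out replicate 1 (0.57) or replicate 2 (0.54) of the MK-8617 group, or taking out a trend on gene length (0.48). The list had a median of -1.18. Beside 38.7% of genes called lower in the table, 35.7% were called higher.

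Of 11 listed genes that turn the loaded ring into an active helicase, from a list of 13, 9 fell and 0 rose, with a median of -1.71. Over all genes tested, 38.7% were called lower and 35.7% higher. Gins2, a GINS subunit, fell by a log2 difference of -2.04 ± 0.3 and the firing factor gene Recql4 of -2.55 ± 0.43. Wdhd1, which couples the helicase to the polymerase that starts new strands, had -1.97 ± 0.3, and Topbp1, a scaffold for helicase assembly, -0.91 ± 0.15. The direct partners of the ring were singled out after their values were seen. Cdc45 had 127.8, 340.7 and 118.9 normalised reads with IRI and 49.2, 42.7 and 67 with MK-8617 (-1.71 ± 0.4, adjusted p = 0.0121), a call lost without MK-8617 replicate 2 (-1.58, adjusted p = 0.0508). Among the GINS genes, Gins1 fell (-1.84 ± 0.34), Gins4 was at -0.85 ± 0.2 (adjusted p = 0.0133) and Gins3 did not pass the threshold (-0.98 ± 0.32, adjusted p = 0.0511). Gins3 did pass in 6 other settings, among them DESeq2 (-0.97, adjusted p = 0.0473) and the fit without IRI replicate 1 (-1.22, adjusted p = 0.0387). The call of Gins4 was lost without MK-8617 replicate 2 or 3 (-0.81 and -0.74) and with the length trend removed (-0.34). Mcm10, an activator that belongs to the wider MCM family by name, was the only one of its list of 5 in the table. It had 179.8, 370.7 and 186 normalised reads with IRI against 67.6, 74.7 and 67 with MK-8617 (-1.72 ± 0.28, adjusted p = 0.00272).

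At the fork itself 30 of 33 listed genes, from a list of 36, fell and 0 rose, with a median of -1.23. The shares among all genes tested were 38.7% lower and 35.7% higher. Pole, the catalytic subunit of the leading strand polymerase that travels with the helicase, fell by a log2 difference of -3.06 ± 0.33. Chaf1a, a histone chaperone, had -3.03 ± 0.28, the ligase gene Lig1 -2.02 ± 0.24 and Rnaseh2c, a subunit of RNase H2, -1.42 ± 0.14. Pcna, the sliding clamp, was singled out after its values were seen. At 1696, 3567 and 2039 normalised reads with IRI and 1389, 1418 and 1467 with MK-8617 it did not pass the threshold (-0.7 ± 0.23, adjusted p = 0.0524). It did pass in 6 other settings, among them DESeq2 (-0.68, adjusted p = 0.0137) and the fit without IRI replicate 2 (-0.38, adjusted p = 0.0461). Genes of deoxynucleotide supply fell in 8 of 10 listed members, from a list of 11, with 0 higher and a median of -1.16. Tk1, thymidine kinase, was at -3.08 ± 0.41 and the ribonucleotide reductase genes Rrm2 and Rrm1 at -2.77 ± 0.4 and -1.58 ± 0.26. Dut, which keeps uracil out of DNA, was at -1.41 ± 0.19.

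Of 22 listed G1/S regulators, from a list of 34, 14 fell and 0 rose, with a median of -1. Among them were E2f1 and E2f2, activating members of the family whose letters were searched in the MCM promoters. E2f1 had 259.3, 656.7 and 299.1 normalised reads with IRI and 67.6, 57.6 and 45.7 with MK-8617 (-2.7 ± 0.34, adjusted p = 0.00079). E2f2 was at -3.22 ± 0.45, the cyclin gene Ccne1 at -3.11 ± 0.52 (-2.52 without IRI replicate 2) and Ccnd1 at -1.82 ± 0.2. Ccnd1 differed from the MCM genes in its IRI libraries, where it had 2569, 2631 and 2586 normalised reads with no excess in replicate 2. The number that fell was 9 without MK-8617 replicate 2, and 9 without MK-8617 replicate 3. With all libraries, 38.7% of the genes tested in the table were called lower and 35.7% higher.

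Genes of mitosis fell in 13 of 18 listed members, from a list of 20, with 0 higher and a median of -2.2. Top2a, the topoisomerase of mitotic chromosomes, was at -3.99 ± 0.61, and the mitotic genes Aurkb, Nusap1 and Tpx2 at -3.2 ± 0.61, -1.89 ± 0.36 and -2.77 ± 0.53. IRI replicate 2 stood out more here than in MCM2-7, with 842.5 reads of Top2a against 146.7 and 151.5 in the other two IRI libraries. Without that library Top2a was at -3.16, Aurkb at -2.44 and Tpx2 at -2.11, and all of these calls held. The median of the mitosis list relative to the IRI mean was -0.94, 1.5 and -0.54 in IRI replicates 1, 2 and 3, and that of MCM2-7 was -0.27, 0.6 and -0.31. The number of mitosis genes that fell was 7 without MK-8617 replicate 1, likewise 7 without replicate 2, and 8 without replicate 3. It was 7 with limma-voom on the recovered reads.

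Of 6 listed genes that remove the ring or turn over its loader, from a list of 13, 2 were called lower and 2 higher, shares of the same order as the 38.7% and 35.7% in the table. Dtl, an adaptor of the ubiquitin ligase that degrades Cdt1, had 214.8, 433.6 and 211.9 normalised reads with IRI and 3.1, 8.5 and 8.5 with MK-8617 (-5.24 ± 0.43, adjusted p = 0.000127). Lrr1, which directs the ligase built on Cul2 to Mcm7, had 13.2, 92.9 and 24.9 normalised reads with IRI and 0 reads in all 3 libraries with MK-8617. Against a floor of 3 reads per library its mean was at least 13.8-fold lower, and without IRI replicate 2 at least 6.05-fold lower. The scaffold gene Cul4b rose (0.54 ± 0.11, adjusted p = 0.00622). Cul2 was at 0.33 ± 0.11 (adjusted p = 0.0477), a call lost without any 1 of 5 libraries and in 4 other settings.

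**Figure D4:**
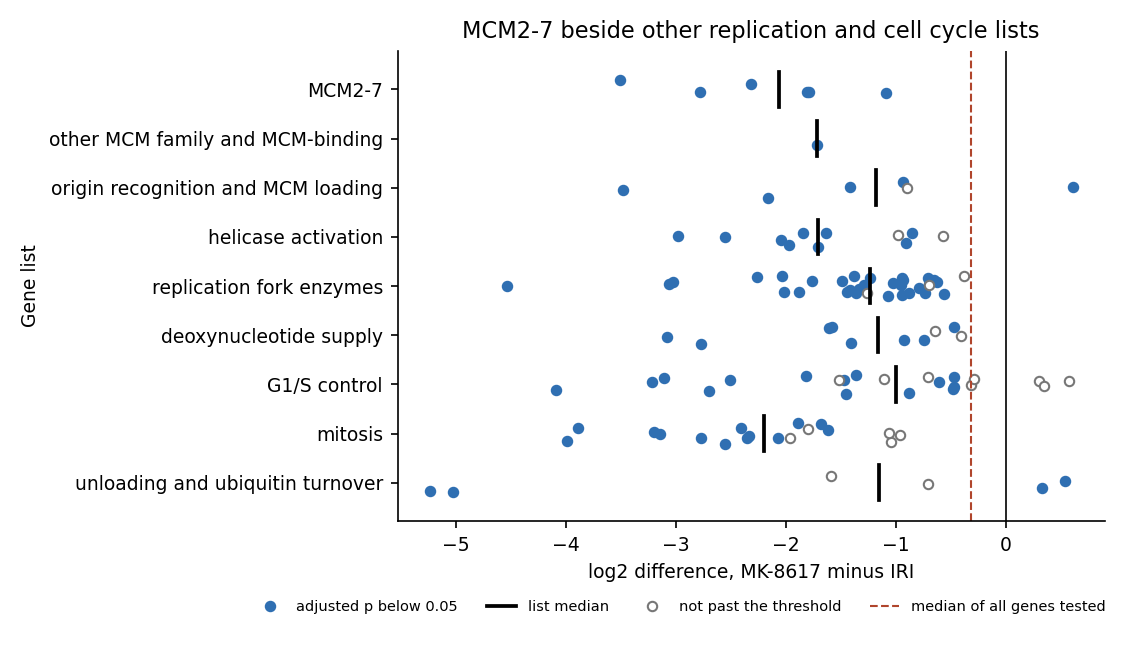
Log2 difference (MK-8617 minus IRI) of each gene in the replication and cell cycle lists, filled where the limma adjusted p is below 0.05, with the median of each list as a bar. The MCM2-7 median of -2.06 lies close to that of mitosis at -2.2, and the dashed line marks the median of all genes tested at -0.31.

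The genes whose pattern over the 6 libraries was most like the mean MCM2-7 pattern were Rps2-ps10, Gcsh, Pole, Dnajc9, Nqo2 and Neu2, with Pearson correlations of 0.9971 to 0.9982 among 6104 genes compared. Such values describe shape and not size, and the separation of the groups raises them for many genes, since 768 genes exceeded 0.95. Pole (-3.06 ± 0.33) and the histone chaperone gene Dnajc9 (-1.57 ± 0.17) fell by amounts in the range of the MCM genes. Gcsh, a subunit gene of the glycine cleavage system, differed by -0.5 ± 0.1 only, and by -0.09 with the length trend removed, where its call was lost. Rps2-ps10 is a ribosomal protein pseudogene whose reads may come from its parent gene, and its call was lost with the length trend removed (-0.29). Among the 6 MCM genes the pairwise correlations ran from 0.925 (Mcm5 with Mcm7) to 0.996 (Mcm3 with Mcm4, and Mcm3 with Mcm5), likewise with no test.

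Markers of other cell types differed between the groups as well, and their part in the fall of MCM2-7 was not tested. Among all genes tested 38.7% were called lower and 35.7% higher, so counts from short marker lists can lie near those shares. Of 15 macrophage and monocyte markers 12 were listed, with 9 lower and 1, Cd14, higher. When a mean of at least 5 CPM was required, which takes low genes out of the test, 5 were lower. The summed FPKM of the 12 markers was 128 to 232 with IRI and 120 to 142 with MK-8617. Cd14 was the largest term with MK-8617, at 85.97 ± 4.42 FPKM (SD) against 25.44 ± 1.87 with IRI. These sums thus do not show the fall of the 9 markers called lower. Of 7 fibroblast and pericyte markers 5 were listed, with 4 lower and 1, Dcn, higher, and a summed FPKM of 233 to 338 against 53.1 to 89.3. The call of Dcn was lost without MK-8617 replicate 1 (0.72, adjusted p = 0.0637) and without replicate 3 (0.78, adjusted p = 0.0568). The 2 neutrophil markers listed of 6 were lower (50.8 to 79.1 against 18.1 to 44.3 summed FPKM), calls lost in 8 settings for S100a8 and 3 for S100a9. Injured tubule markers, 6 listed of 9, were lower in 4 and higher in 1, Sox9, with sums of 2590 to 2850 against 1340 to 1370. Only 2 were lower without MK-8617 replicate 2, without replicate 3, or with the length trend removed, and Krt18 lost its call in each of these. Of 12 proximal tubule markers 5 were listed, with 2 higher and 1, Gatm, lower (-1.23, limma adjusted p = 0.00392). The share called higher was near that of the table. The summed FPKM of the 5 markers was 172 to 455 against 877 to 937, and the largest term, Slc27a2, did not pass (1.35, adjusted p = 0.0532). Without IRI replicate 2 the number higher was 4. None of the 9 T, B and NK cell markers was listed, and they were not analysed here. No listed marker was at 0 in all libraries. Umod, which the thick ascending limb of the kidney makes, had 21670 to 50300 normalised reads in every library. It did not pass (0.46, limma adjusted p = 0.282). Of 9 loop of Henle and distal tubule markers 7 were listed, with 4 higher and 1, Slc12a1, lower (-1.7, limma adjusted p = 0.000674). Collecting duct markers, 4 listed of 7, were lower in 3 (2 to 4 over the libraries left out). The 2 podocyte markers listed of 6 were higher (1 to 2 over the libraries left out). Of 8 endothelium markers 2 were listed, with 1 higher and 0 lower.

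**Figure D5:**
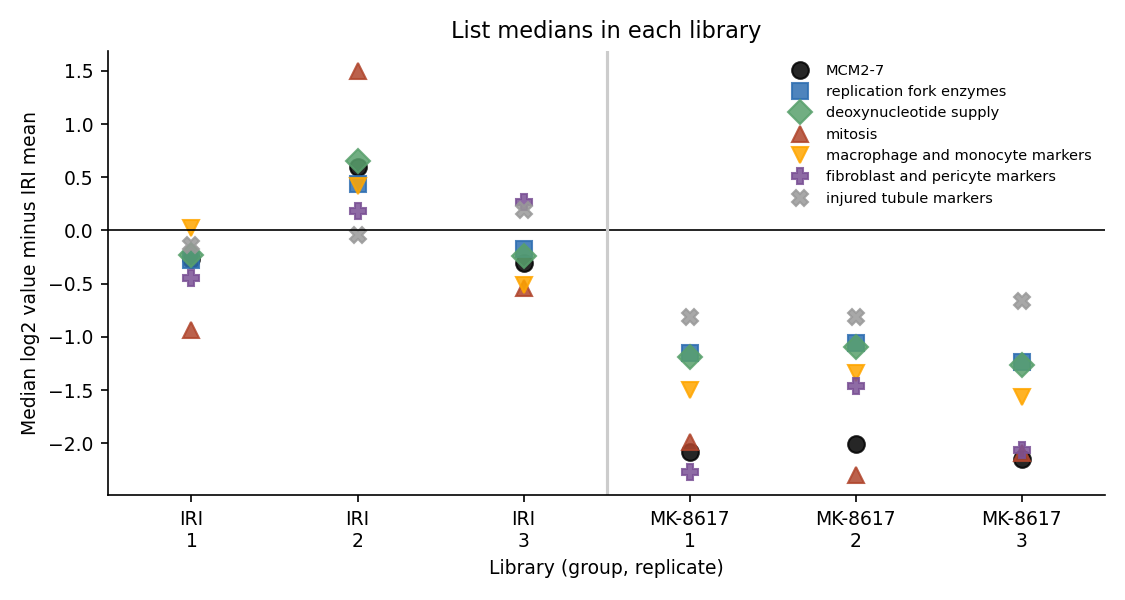
Median over each list of the log2 value minus the mean of the IRI libraries, with 1 marker per list and library. MCM2-7 lies at -0.27, 0.6 and -0.31 in the IRI libraries and at -2.08, -2.01 and -2.15 with MK-8617.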

How the data were processed

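Total RNA from 6 kidney samples was extracted with TRIzol and made into libraries with a NEBNext Ultra kit, per the labels' protocols. Samples were grouped by title. In the MK-8617 group the titles were followed although the treatment field reads MK8618 for replicate 2 and MK8619 for replicate 3. The submitters' processing notes list HISAT2 2.0.5 and featureCounts 1.5.0-p3, besides fastp, CASAVA 1.8 and DESeq2 1.20.0. They also name the human build GRCh38 (hg38), while the deposited identifiers are mouse ones.

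The deposited signal values are read counts that the authors divided by a size factor per library. Each was a whole multiple of the worth of 1 read, which gave back whole reads (100% of values, tolerance 0.001). The authors deposited raw counts for IRI replicate 3 alone, which equalled the recovered reads in all 7340 genes. The deposited FPKM values are per gene length and library total by the authors. Recovered reads, FPKM and exon lengths from GENCODE M21 (GRCm38) gave library totals of 16835541 to 19508497 reads, a total that at least 95.1% of genes shared in each library. A floor of 3 reads was 0.154 to 0.178 CPM and covers counting error only. The log2 fold change, p-value and adjusted p that the authors deposited served only to find that the largest listed p is 0.0499 and that the adjustment ran over 18811 genes. Genes outside the table were not analysed here.

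Values as log2(value + 1) were tested with limma 3.58.1 (trend and robust, R 4.3.3), two-sided, after filterByExpr of edgeR 4.0.16, which left 6961 genes and removed 379. Because of the added 1, changes of low genes are understated. Benjamini-Hochberg adjustment ran over 18811 genes, with a threshold of 0.05. All genes fitted had been selected by p in the same comparison and libraries. The spread that limma shares between genes was thus estimated from selected genes and may be too low. Adjusting over 18811 genes does not correct for that, so calls near the threshold are the least certain. The procedure was also run on simulated counts, with the same spread setting for every gene and far fewer changed genes than were called here. That run therefore does not give error rates for these data. Replicates differed by more than sampling noise (chi-square over its degrees of freedom, 17.37 to 47.9), so none was counted as a duplicate. Alternatives were other pseudocounts, filters, scales, tools (DESeq2 1.42.0, edgeR, limma-voom), a length trend removed, and each library left out. The members, lists and tests were chosen with earlier results of these data known. Named genes were the 6 members, the up to 4 lowest adjusted p-values in each list, members that moved against their list, and the 6 genes with the highest Pearson correlation with the mean MCM2-7 pattern, at a mean of at least 1 CPM and without predicted symbols. Lists were described by counts and medians, with no set test. Another 13 columns without a name hold no values.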

Additional observations from a re-analysis of the deposited data

How the results depend on the processing

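All 6 MCM2-7 genes were lower in each of 18 alternatives, and 107 of 108 values passed the threshold. The exception was Mcm7 without MK-8617 replicate 3, so that leaving out 1 library gave 5 to 6 members called lower, and -1.29 to -0.77 for Mcm7. The order of the falls changed only between Mcm4 and Mcm6. They changed places without IRI replicate 1, without MK-8617 replicate 2 and with the length trend removed (-1.72 for Mcm4, -1.83 for Mcm6). The difference in their log2 FPKM ratio was -0.02 with all libraries and -0.08 to 0.06 over the libraries left out. It was above 0 when IRI replicate 1 (0.06) or replicate 2 of the other group (0.02) was left out. Removing the trend on gene length moved the median of all genes from -0.31 to -0.01 and left Mcm5 at -3.48 and Mcm7 at -1.1. Leaving out 1 library gave 1488 to 2446 genes called higher, against 2482, with the lowest numbers without MK-8617 replicate 1 (1488) and replicate 3 (1618). On the recovered reads, edgeR with TMM called 2875 genes higher and 2333 lower, edgeR with the authors' size factors (added after seeing the data) 2406 and 2676, and DESeq2 3085 and 2320, against 2482 and 2691. The share called higher thus depended on the scaling. The TMM and DESeq2 factors were computed from genes of the table alone, which had all been listed for a difference between the groups.

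Same-numbered libraries of the groups had correlations of deviations of 0.021, 0.116 and 0.115, and those with unlike numbers had -0.129 to 0.02. These low values do not settle whether the numbers pair the samples, so the fit was also run with the replicate number as a block. With the replicate block 2510 genes were called higher and 2747 lower, and all 6 members stayed lower, with Mcm7 at an adjusted p of 0.00629.

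In the loading list the 1 gene called higher became 0 with the length trend removed, and 0 to 1 over the libraries left out. In the G1/S list the number called lower was 9 to 16 over the libraries left out. The number called higher there, 0 in limma, was 1 with edgeR with TMM, limma-voom or the length trend removed, 2 with DESeq2 or with adjustment over the genes in the fit, and 0 to 1 over the libraries left out. Genes of mitosis called lower were 5 at a mean of at least 5 CPM, 7 with limma-voom and 7 to 13 over the libraries left out. The filter at 5 CPM takes low genes out of the test, so a smaller number there need not mean lost calls. In the unloading list the number lower was 1 at a mean of at least 5 CPM and 4 with adjustment over the genes in the fit. The number higher was 1 at a mean of at least 5 CPM, on the FPKM scale, with edgeR and the authors' size factors, with the replicate block, and over the libraries left out 1 to 2.

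With principal transcript lengths, an alternative chosen after seeing the data, mean FPKM with IRI was 22.4 for Mcm2, 36.1 for Mcm6 and 25.9 for Mcm7, and with MK-8617 4.34 for Mcm2, 2.79 for Mcm3, 9.84 for Mcm6 and 11.4 for Mcm7. Shares with IRI became 16.3, 14.4, 10.9, 14.5, 25.7 and 18.2% for Mcm2 to Mcm7, and with MK-8617 12.7, 8.13, 12.1 and 28.7% for Mcm2, Mcm3, Mcm4 and Mcm6. These differences follow from the lengths used. With MK-8617, counting alone gives a coefficient of variation of 6.28% for Mcm4 and 8.32% for Mcm3. That is about as large as the 5.3% and 8.86% seen, so depth limits the levels of these genes. In the other members the spread seen was above counting error, with no test and only 3 libraries to estimate it. It was 30% against 10.1% for Mcm5, 14.9% against 6.32% for Mcm2, 9.63% against 4.52% for Mcm6 and 6.35% against 4.16% for Mcm7. With IRI alone the spread between libraries (29% to 48.9%) was far above counting error (at most 3.09%).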

Other observations

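Across the table, 242 genes tested had E2F letters in their RefSeq promoter window and 4793 had a window without them. With the letters 123 genes were called lower and 63 higher, which is 50.8% lower, with a median log2 difference of -0.47. Without them 1831 were lower and 1717 higher, which is 38.2% lower, with a median of -0.3. The letters were found in 10 of 28 fork genes with a window, among them Lig1, Clspn and Pola1, in 3 of 5 loading genes (Orc1, Cdc6 and Cdt1) and in 5 of 17 G1/S regulators. They were in 1 of 16 mitosis genes, Cdk1, and in 0 of 9 genes of deoxynucleotide supply. CCAAT was in 14 of the 16 mitosis genes, against 41.1% of all genes. These are counts with no test, on a search chosen with the results known.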
